A study of Mus musculus with 9 samples.

Results

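A set of 10 neutrophil granule genes and companions was followed mouse by mouse in bulk RNA of the injured mouse spinal cord. They were S100a8, S100a9, Mpo, Elane, Prtn3, Camp, Ngp, Ltf, Retnlg and Ly6g, given by name and matched by Ensembl identifier, and they make up 10 of the 52550 genes of the count table. The animals were adult female C57BL/6N mice in 3 groups of 3. Sham mice had a laminectomy without contusion, SCI mice had a spinal contusion and received the vehicle DMSO, and SCI+FIPI mice had the same contusion and daily intraperitoneal FIPI, an inhibitor of phospholipase D (PLD). All groups therefore shared the opened vertebra, and a cord segment around the injury was taken on day 7. Library totals lay between 20806000 and 24582377 counts. Levels are given as CPM, the count relative to the library size scaled by the TMM method, and as CPM per kb of exonic length where genes are compared with each other.

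Neutrophils make their granule proteins in the marrow, while they mature, and then carry them ready-made in the blood. Primary granule genes such as Mpo and Elane are transcribed at the promyelocyte stage and secondary granule genes such as Ltf, Camp and Ngp at the myelocyte stage, so that a mature neutrophil in a tissue holds much of the protein and little of the early mRNA. S100a8 and S100a9 remain abundant as mRNA in circulating neutrophils and are also made by some monocytes. After contusion of the cord, neutrophils are known to enter early and to be outnumbered by macrophages in the following days. In bulk tissue, fewer cells of a type and less RNA per cell cannot be told apart.

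Several members are neighbours in the genome (GENCODE M21 on GRCm38). S100a8 (chr3:90668978-90670035, plus strand) and S100a9 (chr3:90692632-90695721, minus strand) lie 22.6 kb apart. Prtn3 (chr10:79874476-79883174) and Elane (chr10:79886247-79888215) lie 3.07 kb apart on the same strand. On chromosome 9, Camp (chr9:109847379-109849617) is followed by Ngp (chr9:110419747-110423012) after 570 kb and by Ltf (chr9:111019271-111042767) after a further 596 kb. Mpo (chr11:87793581-87804413), Retnlg (chr16:48872621-48874496) and Ly6g (chr15:75155240-75159126) stand alone. The stretches just upstream of 4 of the members are shown, credited to RefSeq (GRCm38.p6), as examples of a cytosolic S100 gene, a primary granule gene and a pair of secondary granule genes. Each is written 5′ to 3′ on the strand of the gene and stops before the transcript begins, with capitals marking matches, on either strand, to the letters TTGCNNAA (C/EBP) or GAGGAA (PU.1), which did not overlap.
S100a9 promoter, chr3:90695722-90695971, minus strand: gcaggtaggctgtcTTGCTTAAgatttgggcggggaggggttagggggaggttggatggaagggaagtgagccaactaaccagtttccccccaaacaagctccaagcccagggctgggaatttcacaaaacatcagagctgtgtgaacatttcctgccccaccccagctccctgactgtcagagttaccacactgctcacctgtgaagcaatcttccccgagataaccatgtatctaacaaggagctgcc
Elane promoter, chr10:79886062-79886246, plus strand: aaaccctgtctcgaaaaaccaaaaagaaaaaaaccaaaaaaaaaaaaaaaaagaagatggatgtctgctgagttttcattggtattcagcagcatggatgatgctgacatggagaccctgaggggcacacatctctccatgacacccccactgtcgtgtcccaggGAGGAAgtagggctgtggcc
Ngp promoter, chr9:110419558-110419746, plus strand: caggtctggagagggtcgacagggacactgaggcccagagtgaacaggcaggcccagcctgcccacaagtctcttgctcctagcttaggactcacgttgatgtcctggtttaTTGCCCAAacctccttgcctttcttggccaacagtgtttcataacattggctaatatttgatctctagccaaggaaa
Ltf promoter, chr9:111019042-111019270, plus strand: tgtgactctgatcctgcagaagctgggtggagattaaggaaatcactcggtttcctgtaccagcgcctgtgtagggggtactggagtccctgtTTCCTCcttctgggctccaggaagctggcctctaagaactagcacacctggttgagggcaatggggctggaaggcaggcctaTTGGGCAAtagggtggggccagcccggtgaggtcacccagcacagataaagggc
In the 250 bases before the RefSeq start, the C/EBP letters were found for 5 of the 10 members (S100a9, Ngp, Ltf, Retnlg and Ly6g) and in 9.56% of 32851 promoters. The PU.1 letters were found for 6 members (S100a8, Mpo, Elane, Prtn3, Ltf and Ly6g) and in 23.3% of all promoters. A TATAAA box was found for 2 members, S100a8 and Ly6g, and in 12.4% of all promoters. C/EBP and PU.1 proteins are transcription factors of the granulocyte and myeloid lineages, and a match of letters is a description, not a measured binding site.

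At day 7 the granule genes did not separate the groups. A gene was called where the log2 fold change was 0.5 or more in either direction and the adjusted p lay under 0.05 (edgeR quasi-likelihood, Benjamini-Hochberg over 18699 genes). Under this rule 0 of the 10 members were called between SCI and Sham, between SCI+FIPI and SCI, or between SCI+FIPI and Sham. The background differed widely between these comparisons. Between SCI and Sham 47.0% of all genes tested were called (24.4% higher and 22.5% lower in SCI), between SCI+FIPI and SCI 3.06% (2.36% higher and 0.695% lower in SCI+FIPI), and between SCI+FIPI and Sham 38.1% (21.2% higher and 17.0% lower in SCI+FIPI). Without adjustment, 0, 1 and 0 members had p under 0.05 in these comparisons, the 1 being Mpo between SCI+FIPI and SCI. DESeq2 and limma-voom called 0 members in each comparison as well. For all 10 members the ranges of the mice overlapped in all 3 comparisons, whereas the groups did not overlap for 70.5% of all genes between SCI and Sham, 30.2% between SCI+FIPI and SCI and 66.3% between SCI+FIPI and Sham. An exact permutation test on log2 CPM, two-sided and unable to go below 0.1 with 3 mice against 3, gave a p of at least 0.3 for every member and comparison.

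The S100 pair encodes the subunits of calprotectin, a calcium and zinc binding protein of the neutrophil cytosol. Per length, S100a9 was the most abundant member over the 9 mice, at 33.8 CPM per kb, and S100a8 stood at 16.1 CPM per kb. S100a9 was measured at 9.92, 26.8 and 9.24 CPM in the Sham mice, 17.4, 13.6 and 13.4 CPM in the SCI mice and 5.05, 31.2 and 31.9 CPM in the SCI+FIPI mice. The lowest and the highest mice of all 9 were both in the SCI+FIPI group, and Sham mouse 2 was above every SCI mouse. Its log2 fold change was -0.05 (SE 0.74) between SCI and Sham and 0.62 (SE 0.72) between SCI+FIPI and SCI, with adjusted p of 0.955 and 0.659 by edgeR. S100a8 was measured at 5.89, 13.7 and 5.56 CPM in Sham, 12.9, 10.3 and 7.09 CPM in SCI and 5.01, 20.6 and 19.5 CPM in SCI+FIPI mice. Again Sham mouse 2 was high and SCI+FIPI mouse 1 was low, and the log2 fold changes were 0.26 (SE 0.63) and 0.58 (SE 0.61).

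**Figure D1:**
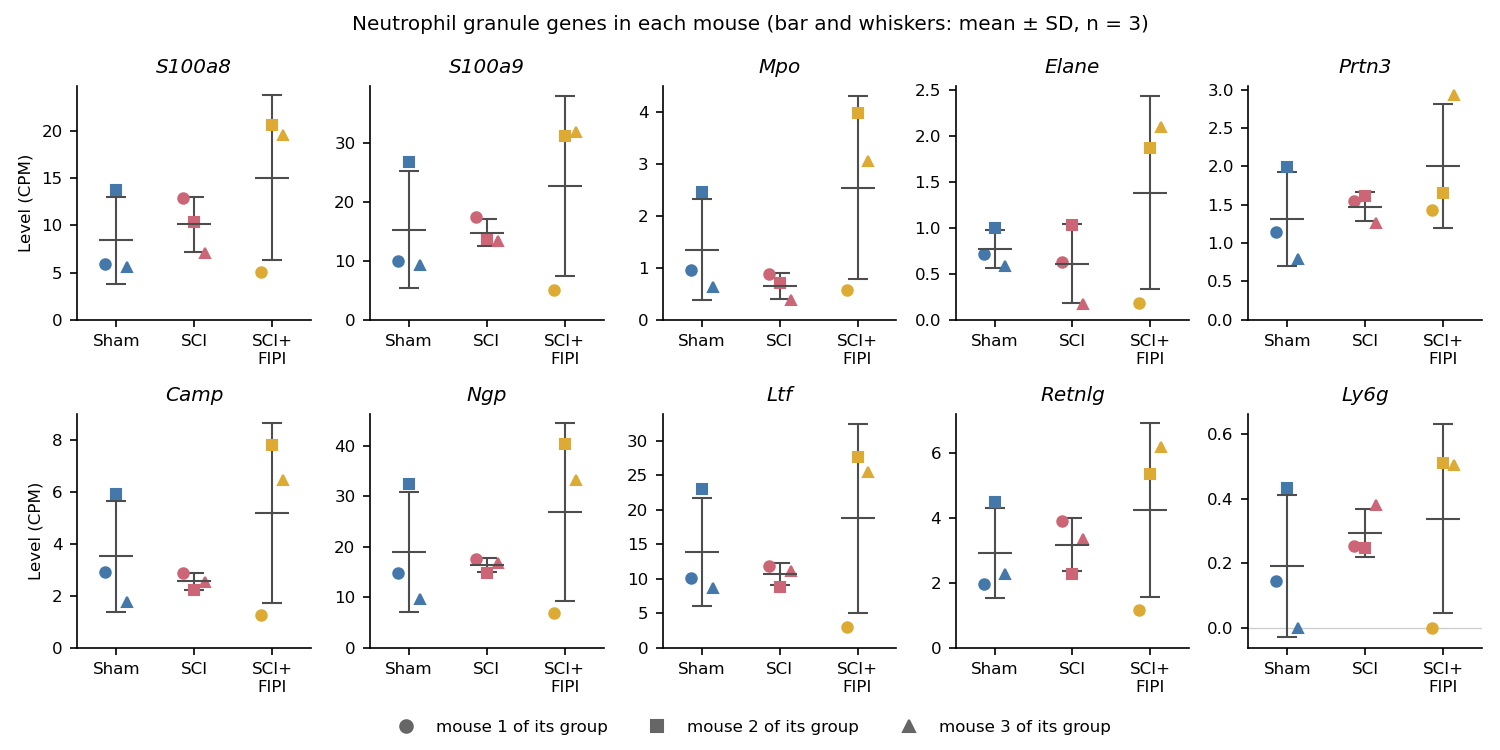
Level of each granule gene in CPM (vertical axis, a scale for each gene) in the 3 mice of each group, with bar and whiskers at the mean ± SD (n = 3). In the Sham group mouse 2 (square) was highest for 10 of 10 genes, and in the SCI+FIPI group mouse 1 (circle) was lowest for 10 of 10.

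The primary granule genes were few in transcripts. Mpo encodes myeloperoxidase, Elane neutrophil elastase and Prtn3 proteinase 3, and they stood at 0.443, 0.934 and 0.922 CPM per kb over the 9 mice. Mpo was measured at 0.958, 2.46 and 0.627 CPM in Sham, 0.881, 0.703 and 0.380 CPM in SCI and 0.581, 3.98 and 3.06 CPM in SCI+FIPI mice. The SCI mice lay low and close together, 2 of the 3 SCI+FIPI mice lay above all others, and the remaining SCI+FIPI mouse lay within the SCI range. Mpo had the largest log2 fold change of the members between SCI+FIPI and SCI, 1.95 (SE 0.77), with an unadjusted p of 0.0351 and an adjusted p of 0.160 by edgeR. Between SCI and Sham it was -1.04 (SE 0.81), with an adjusted p of 0.293, and without Sham mouse 2 it was -0.26 (SE 0.82, adjusted p = 0.801 by edgeR). Without SCI+FIPI mouse 1 the value between SCI+FIPI and SCI was 2.42 (adjusted p = 0.0199 by edgeR), and Mpo was then called. Over the fits that each left out 1 mouse this value ran from 1.48 to 2.42. SCI+FIPI mouse 1 and Sham mouse 2 stood out by the levels of the members themselves. Adjusted p-values of members from fits without them, here and below, are therefore too small.

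Elane was measured at 0.719, 0.993 and 0.585 CPM in Sham, 0.629, 1.03 and 0.169 CPM in SCI and 0.179, 1.87 and 2.10 CPM in SCI+FIPI mice. The values of 0.169 and 0.179 CPM rest on 4 counts each, so the lowest mice are measured with low precision. Its log2 fold change between SCI+FIPI and SCI was 1.18 (SE 0.75, adjusted p = 0.379 by edgeR), and without SCI+FIPI mouse 1 it was 1.68 and called (adjusted p = 0.0459). Over the fits that each left out 1 mouse it ran from 0.74 to 1.78. Prtn3, the neighbour of Elane, varied less. It was measured at 1.15, 1.99 and 0.794 CPM in Sham, 1.55, 1.61 and 1.27 CPM in SCI and 1.43, 1.65 and 2.94 CPM in SCI+FIPI mice, and SCI+FIPI mouse 1 lay between SCI values rather than below them. Its log2 fold change was 0.44 (SE 0.34) between SCI+FIPI and SCI and 0.62 (SE 0.34, adjusted p = 0.140 by edgeR) between SCI+FIPI and Sham. Without Sham mouse 2 the latter was 1.05 (adjusted p = 0.0239) and Prtn3 was called. Over the fits that each left out 1 mouse the change between SCI+FIPI and Sham ran from 0.24 to 1.05. Prtn3 shares 159 bases, or 9.18% of its exonic length, with Plppr3 on the opposite strand, which held 678 to 1201 counts per mouse against 19 to 70 for Prtn3. Whether counting used the strand is not given in the sources used here, so reads of this stretch cannot be told apart. Mpo shares 512 bases with Gm11505, which had 0 counts in all 9 mice.

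Secondary granule genes followed the same mice. Ltf encodes lactoferrin, an iron-binding protein, Camp the cathelicidin antimicrobial peptide and Ngp neutrophilic granule protein, and over the 9 mice they stood at 4.18, 4.96 and 16.9 CPM per kb. Ltf was measured at 10.2, 22.9 and 8.61 CPM in Sham, 11.9, 8.81 and 11.1 CPM in SCI and 2.95, 27.7 and 25.5 CPM in SCI+FIPI mice. Within the SCI+FIPI group the highest mouse was 9.40 times the lowest, against 2.66 times in Sham and 1.35 times in SCI. Ngp, the most abundant of the 10 genes in CPM, was measured at 14.8, 32.4 and 9.69 CPM in Sham, 17.5, 14.8 and 16.8 CPM in SCI and 6.84, 40.4 and 33.2 CPM in SCI+FIPI mice. Camp was measured at 2.92, 5.92 and 1.76 CPM in Sham, 2.89, 2.23 and 2.53 CPM in SCI and 1.25, 7.84 and 6.46 CPM in SCI+FIPI mice. All 3 genes were thus narrow in SCI and wide in the other 2 groups. Between SCI+FIPI and SCI the log2 fold changes were 0.83 (SE 0.78) for Ltf, 0.71 (SE 0.70) for Ngp and 1.03 (SE 0.69) for Camp, with adjusted p from 0.414 to 0.591 by edgeR. Between SCI and Sham they were -0.39, -0.21 and -0.47, each within 1 SE of 0.

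Retnlg encodes a resistin-like secreted protein of neutrophils and Ly6g the surface protein by which mouse neutrophils are stained. Retnlg was measured at 1.96, 4.49 and 2.26 CPM in Sham, 3.90, 2.27 and 3.33 CPM in SCI and 1.16, 5.34 and 6.17 CPM in SCI+FIPI mice. Its log2 fold change between SCI+FIPI and Sham was 0.54 (SE 0.59, adjusted p = 0.467 by edgeR), and without SCI+FIPI mouse 1 it was 0.98 (adjusted p = 0.0233) and called. Over the fits that each left out 1 mouse it ran from 0.17 to 1.00. Ly6g was the scarcest member. It had 3, 10 and 0 counts in the Sham mice, 6, 6 and 9 counts in the SCI mice and 0, 12 and 12 counts in the SCI+FIPI mice. A count of 0 allows a level of up to 0.125 CPM in Sham mouse 3 and 0.134 CPM in SCI+FIPI mouse 1 (3 counts, counting error only). Of the 50-base stretches of the Ly6g transcript 0.448% also occur in the related Ly6i or in Gm28116. Those of the other members were found in no other transcript read in the same direction. This search did not cover opposite strands, where Prtn3 and Mpo overlap other genes as given above.

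Over the 10 genes, the median log2 fold change was -0.13 between SCI and Sham, with 4 members higher and 6 lower, 0.67 between SCI+FIPI and SCI and 0.59 between SCI+FIPI and Sham, with all 10 higher in both of these. The median of all genes tested was -0.00315, -0.00135 and -0.00277 in these comparisons. The last 2 comparisons share the same SCI+FIPI mice, and the members moved together within mice, so the 10 directions are not independent of each other.

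Within groups, the members varied together from mouse to mouse. The summed level of the members was 48.6, 112 and 39.1 CPM in Sham, 69.8, 55.7 and 56.5 CPM in SCI and 24.5, 141 and 131 CPM in SCI+FIPI mice. Sham mouse 2 was the highest of its group for 10 of 10 members, SCI+FIPI mouse 1 the lowest of its group for 10 of 10 and Sham mouse 3 the lowest for 9 of 10. In the SCI group no mouse took such a place, with mouse 1 highest for 7 members and mice 2 and 3 lowest for 5 each. On the log2 scale, the median deviation of the members from their own means over the 9 mice was 0.82 in Sham mouse 2, 1.11 and 1.01 in SCI+FIPI mice 2 and 3 and -1.35 in SCI+FIPI mouse 1. All 10 members were above their own mean in the first 3 of these mice, and 0 were in SCI+FIPI mouse 1 and Sham mouse 3.

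**Figure D2:**
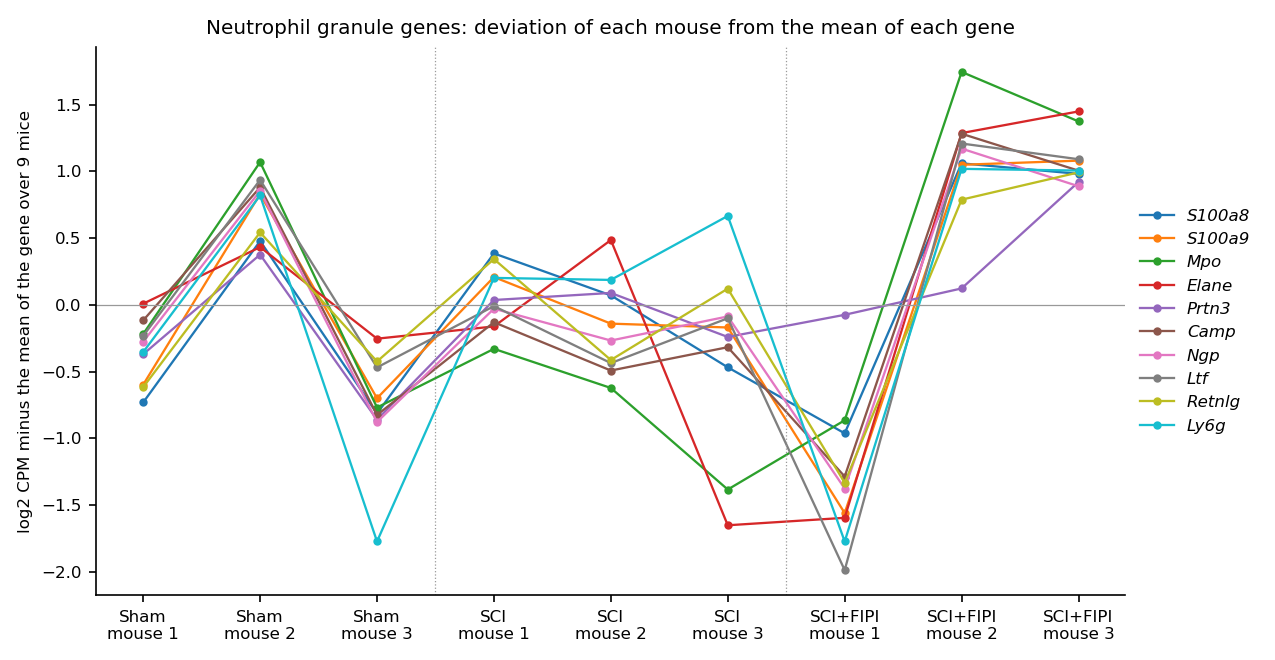
Deviation of each granule gene (one line a gene) from its own mean over the 9 mice, in log2 CPM (vertical axis), for each mouse (horizontal axis, groups parted by dotted lines). All 10 lines lie above 0 in Sham mouse 2 and in SCI+FIPI mice 2 and 3 and below 0 in SCI+FIPI mouse 1, where the median deviation was -1.35.

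The spread between mice of a group was wide for these genes. The standard deviation of log2 CPM within groups had a median of 0.98 over the members, from 0.48 for Prtn3 to 1.20 for Ly6g, against 0.14 over all 18699 genes and 0.26 over the 9641 genes within the members' range of mean level. The biological coefficient of variation, the spread between mice beyond counting noise, had a median of 58.6% over the members against 9.38% over all genes and 15.5% over genes of that level. Proportions of the members to each other were read from counts within a mouse. Counts of S100a8 and S100a9 together were 0.568 to 0.738 times those of Camp, Ngp and Ltf in Sham, 0.671 to 0.938 times in SCI and 0.683 to 0.911 times in SCI+FIPI mice. Counts of Mpo and Elane, leaving out Prtn3 for its overlap with Plppr3, were 0.0564 to 0.0604 times those of the secondary granule genes in Sham, 0.0180 to 0.0671 times in SCI and 0.0688 to 0.0792 times in SCI+FIPI mice. SCI+FIPI mouse 1, with 17 counts of Mpo and Elane and 247 of the secondary granule genes, had the lowest ratio of its group, 0.0688, and with Prtn3 counted in it had the highest of the 9 mice, 0.198 against 0.0595 to 0.129 in the others.

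Genes with the most similar course over the 9 mice were mostly the members themselves. Likeness was the root mean square difference of log2 CPM after centring each gene on its mean, among 16014 genes of sufficient level, and 29 of the 50 places (5 nearest genes for each member) went to members. Ngp and Camp were nearest to each other, at 0.14. Cd177, a neutrophil surface protein of the secondary granules, was among the nearest of 7 members, with 2.01, 4.62 and 1.38 CPM in Sham, 3.69, 2.27 and 2.66 CPM in SCI and 1.34, 5.68 and 4.45 CPM in SCI+FIPI mice. Nfe2, a transcription factor of erythroid and megakaryocytic cells, and Igkc, the immunoglobulin kappa constant region, were each near 2 members. Prtn3 had no member among its nearest genes, which were Fxyd3, Gm26773, Rps3a3, Gm42970 and Bdkrb2. Elane had Tnmd, a tendon gene, nearest.

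Prx, which encodes periaxin of the peripheral myelin sheath, was among the nearest genes of both S100a8 and Retnlg. It was measured at 34.7, 67.7 and 35.9 CPM in Sham, 75.6, 57.1 and 61.1 CPM in SCI and 38.0, 107 and 105 CPM in SCI+FIPI mice. As with the granule genes, Sham mouse 2 was the highest of its group and SCI+FIPI mouse 1 the lowest of its group. A list of 6 Schwann cell genes, drawn up after these values were seen, summed to 134, 213 and 144 CPM in Sham, 227, 195 and 186 CPM in SCI and 149, 288 and 279 CPM in SCI+FIPI mice, with 5 of the 6 tested and 1, 0 and 1 called, each higher, between SCI and Sham, SCI+FIPI and SCI, and SCI+FIPI and Sham. Pmp2 was too low to be tested. The part of nerve root tissue in the levels of the granule genes was not tested.

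Within groups, lists of blood, marrow and bone shared the end places of the granule genes. The summed erythroid, B-cell precursor, platelet and eosinophil lists were each highest of Sham in mouse 2 and lowest of SCI+FIPI in mouse 1. So were the summed bone matrix and osteoclast lists. Between groups their order differed from that of the granule genes. The 9 erythroid genes found summed to 312, 393 and 289 CPM in Sham, 238, 198 and 101 CPM in SCI and 65.8, 185 and 239 CPM in SCI+FIPI mice, so that Sham mouse 2 and SCI+FIPI mouse 1 again took the highest and the lowest places, while Sham mice 1 and 3, with low granule genes, had more erythroid RNA than any injured mouse. Hbb-bs, a beta globin, was measured at 138, 160 and 126 CPM in Sham, 100.3, 84.5 and 42.2 CPM in SCI and 27.4, 75.5 and 94.2 CPM in SCI+FIPI mice. Slc4a1, the red cell anion exchanger, chosen after its values were seen, was measured at 8.24, 17.2 and 5.85 CPM, 8.22, 3.10 and 1.60 CPM and 0.983, 9.58 and 11.9 CPM in the same order. B-cell precursor genes summed to 6.13, 12.5 and 5.85 CPM in Sham, 5.66, 4.92 and 5.10 CPM in SCI and 2.82, 5.13 and 5.37 CPM in SCI+FIPI mice. Among bone matrix genes, Ibsp, also chosen after its values were seen, was measured at 0.527, 1.99 and 0.543 CPM in Sham, 1.47, 1.32 and 1.43 CPM in SCI and 1.83, 6.19 and 18.7 CPM in SCI+FIPI mice. Bglap, Bglap2 and Sp7, named for sharing this, were also highest of Sham in mouse 2 and lowest of SCI+FIPI in mouse 1. The 4 most abundant bone genes, Col10a1, Alpl, Smpd3 and Dmp1, were not highest of Sham in mouse 2, where Dmp1 was lowest (8.81 CPM). In SCI+FIPI mouse 1 Dmp1 was the lowest of its group and Alpl lay between. Smpd3 and Col10a1 were the highest there, at 14.3 and 14.8 CPM. Of the 10 bone genes, Col10a1, a cartilage collagen, was the most abundant in SCI mice. Together they summed to 49.8, 52.3 and 51.7 CPM in Sham, 110, 105 and 118 CPM in SCI and 57.6, 62.3 and 72.7 CPM in SCI+FIPI mice. Between SCI and Sham, 1 of 9 erythroid genes tested was called, lower, 3 of 7 B-cell precursor genes, all lower, and 2 of 9 bone genes higher and 2 lower. Between SCI+FIPI and SCI, 0 erythroid and 0 B-cell precursor genes were called by edgeR (0 at an unadjusted p under 0.05), with 1 bone gene higher (Bglap) and 1 lower (Col10a1). The parts of blood, marrow and bone in the levels of the granule genes were not tested. Perfusion is described for the mice used in histology.

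**Figure D3:**
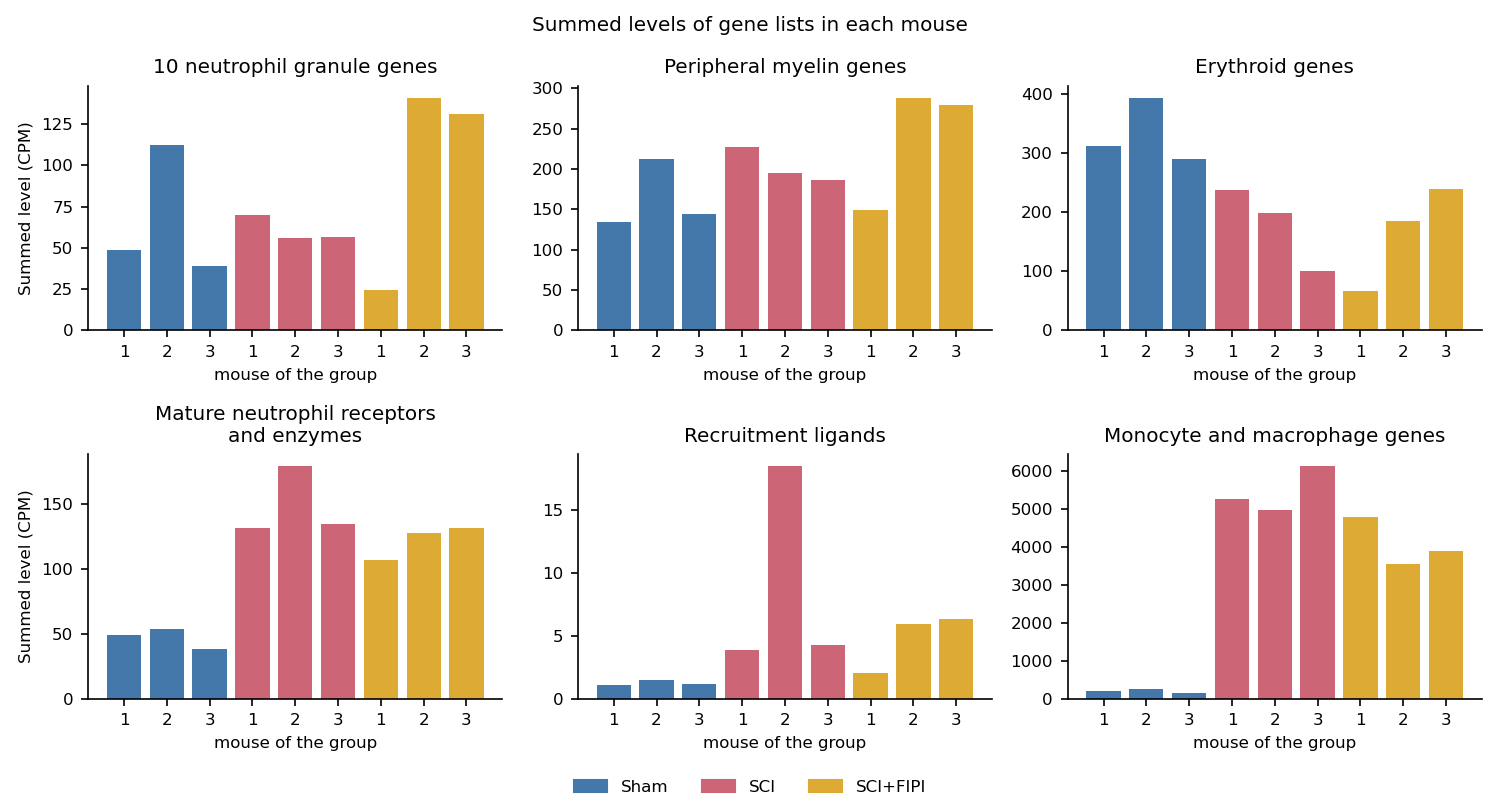
Summed CPM (vertical axes) of 6 gene lists in each mouse (horizontal axes, 3 mice a group). All lists but the macrophage genes were highest of Sham in mouse 2 and lowest of SCI+FIPI in mouse 1. The macrophage genes were highest of their group in both of these mice. Between groups, the order of the granule genes differed from that of the peripheral myelin genes. The peripheral myelin genes were lower in Sham mouse 2 (213 CPM) than in SCI mouse 1 (227 CPM). In SCI+FIPI mouse 1 (149 CPM) they were higher than in Sham mice 1 and 3 (134 and 144 CPM). The macrophage genes summed to 135 to 247 CPM in Sham and 3540 to 6140 CPM in the injured mice.

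Other lineages were also read beside the members. Monocyte and macrophage genes, such as Lyz2 (lysozyme) and Cd68, summed to 135 to 247 CPM in Sham, 4978 to 6140 CPM in SCI and 3540 to 4787 CPM in SCI+FIPI mice, with 6 of 7 called higher in both injured groups against Sham and 0 called between SCI+FIPI and SCI (2 at an unadjusted p under 0.05). SCI+FIPI mouse 1, lowest in granule genes, was the highest of its group in these. Genes of eosinophils, basophils and mast cells summed to 3.21, 4.10 and 1.96 CPM in Sham, 4.82, 3.51 and 3.84 CPM in SCI and 1.39, 9.03 and 3.61 CPM in SCI+FIPI mice. Of these genes 0 of 3 tested were called in any comparison by edgeR, and none of the 3 had an unadjusted p under 0.05. The megakaryocyte and platelet list summed to 13.2, 18.4 and 11.7 CPM in Sham, 61.7, 63.3 and 54.6 CPM in SCI and 50.6, 51.1 and 60.6 CPM in SCI+FIPI mice. Megakaryocyte and platelet genes had 3 of 7 called higher and 1 lower after injury, osteoclast genes 3 of 4 tested higher, microglial genes 3 of 6 higher and skeletal muscle genes 0 of 6 (0 at an unadjusted p under 0.05). Spinal cord tissue was present in every mouse, with neuronal genes at 552 to 2766 CPM, oligodendrocyte genes at 19847 to 29139 CPM and astrocyte genes at 7266 to 13054 CPM. Neuronal genes had 5 of 5 called lower and astrocyte genes 3 of 4 higher and 1 lower between SCI and Sham, and oligodendrocyte genes 2 of 4 lower. Of the neuronal genes, 4 of 5 (Snap25, Syt1, Rbfox3 and Slc32a1) were called higher between SCI+FIPI and SCI, where 2.36% of all genes were, and the 5 had a median of 0.59 on the log2 scale. Their summed level was 824, 726 and 552 CPM in SCI and 1080, 1176 and 977 CPM in SCI+FIPI mice. The groups did not overlap in this sum, and of all single genes tested 30.2% did not overlap. The part of neuronal tissue in the levels of the granule genes was not tested.

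Further genes of the neutrophil programme were read in the same fit. Of 40 other neutrophil genes 31 were tested, and between SCI and Sham 15 were called higher and 1 lower (median log2 fold change 1.42). Between SCI+FIPI and SCI 0 were called higher and 2 lower (median -0.19), and between SCI+FIPI and Sham 14 were called higher and 1 lower (median 1.19). Over all genes tested 47.0%, 3.06% and 38.1% were called in either direction in these comparisons, in the same order. Among 11 tested genes of secondary and tertiary granules, 5 were called higher after injury. Named in full beyond the most abundant, they were Anxa1, Chil3, Mmp8, Hp and Mmp25. Mmp8, Hp and Mmp25 rose by 2.33 (SE 0.23), 2.34 (SE 0.58) and 1.55 (SE 0.25) on the log2 scale between SCI and Sham. Anxa1, annexin A1, was at 3.98 to 18.5 CPM in Sham and 81.6 to 89.4 CPM in SCI mice, a log2 fold change of 2.81 (SE 0.42, adjusted p = 0.00100 by edgeR). Unlike the granule genes, Anxa1 was narrow in the SCI+FIPI mice, at 69.5, 71.5 and 70.3 CPM. Which cells held its RNA was not tested. Chil3, a chitinase-like protein that macrophages also make, rose by 1.29 (SE 0.34, adjusted p = 0.00971). Mmp9 (gelatinase B) and Lcn2 (lipocalin 2) were not called, at -0.29 (SE 0.31) and 1.17 (SE 0.46, adjusted p = 0.0601). By edgeR, Lcn2 was called without SCI+FIPI mouse 1 (adjusted p = 0.0128), with only the 2 groups compared (adjusted p = 0.0188) and without robust estimation (adjusted p = 0.0106). Lcn2 was also called by DESeq2 (adjusted p = 0.0226) and by limma-voom (adjusted p = 0.0133). Cd177, which ran with the granule genes, was at 0.10 (SE 0.60). Of the other primary granule genes, Ctsg and Ms4a3 were too low to be tested, as were 5 of 6 stefins and whey acidic proteins, and the remaining Wfdc21 was not called.

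Receptors and enzymes of mature neutrophils had 7 of 14 called higher and 0 lower between SCI and Sham. Named in full beyond the most abundant, they were Csf3r, Cxcr1, Il1r2, Trem1, Clec4d, Clec4e and Padi4. Of all genes tested 24.4% were called higher and 22.5% lower in this comparison. Csf3r, the receptor of G-CSF, was at 23.2 to 32.3 CPM in Sham and 77.8 to 86.3 CPM in SCI mice, with a log2 fold change of 1.54 (SE 0.11). In the SCI+FIPI mice it was at 68.8, 74.9 and 80.6 CPM, the highest 1.17 times the lowest. Which cells held the Csf3r RNA was not tested. Clec4d, a C-type lectin shared with macrophages, was at 0 to 1.51 CPM in Sham and 20.3 to 31.3 CPM in SCI mice. Both were separated between Sham and SCI without overlap, as were 70.5% of all genes tested. Among the transcription factors of granulopoiesis, Cebpa, Cebpd and Spi1, which macrophages and microglia also express, rose after injury by 3.11 (SE 0.14), 1.95 (SE 0.24) and 2.99 (SE 0.14) on the log2 scale, and Myb, a factor of immature cells, fell by 1.57 (SE 0.38).

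Between SCI+FIPI and SCI, Il1r2 and Spi1 were the neutrophil genes called. Il1r2, the decoy receptor of interleukin 1, was measured at 1.43, 3.68 and 1.81 CPM in SCI and 0.536 to 1.1 CPM in SCI+FIPI mice, with a log2 fold change of -1.50 (SE 0.38, adjusted p = 0.0258 by edgeR). The groups did not overlap, as for 30.2% of all genes tested, and without SCI mouse 2 the value was -0.99 (adjusted p = 0.148). Spi1, which encodes PU.1, was measured at 88.6, 94.9 and 106 CPM in SCI and 67.3, 64.2 and 70.7 CPM in SCI+FIPI mice, with a log2 fold change of -0.52 (SE 0.12, adjusted p = 0.0251). The call of Il1r2 was lost without SCI mouse 2 or any 1 SCI+FIPI mouse, and that of Spi1 without SCI mouse 2, SCI mouse 3 or any 1 SCI+FIPI mouse.

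**Figure D4:**
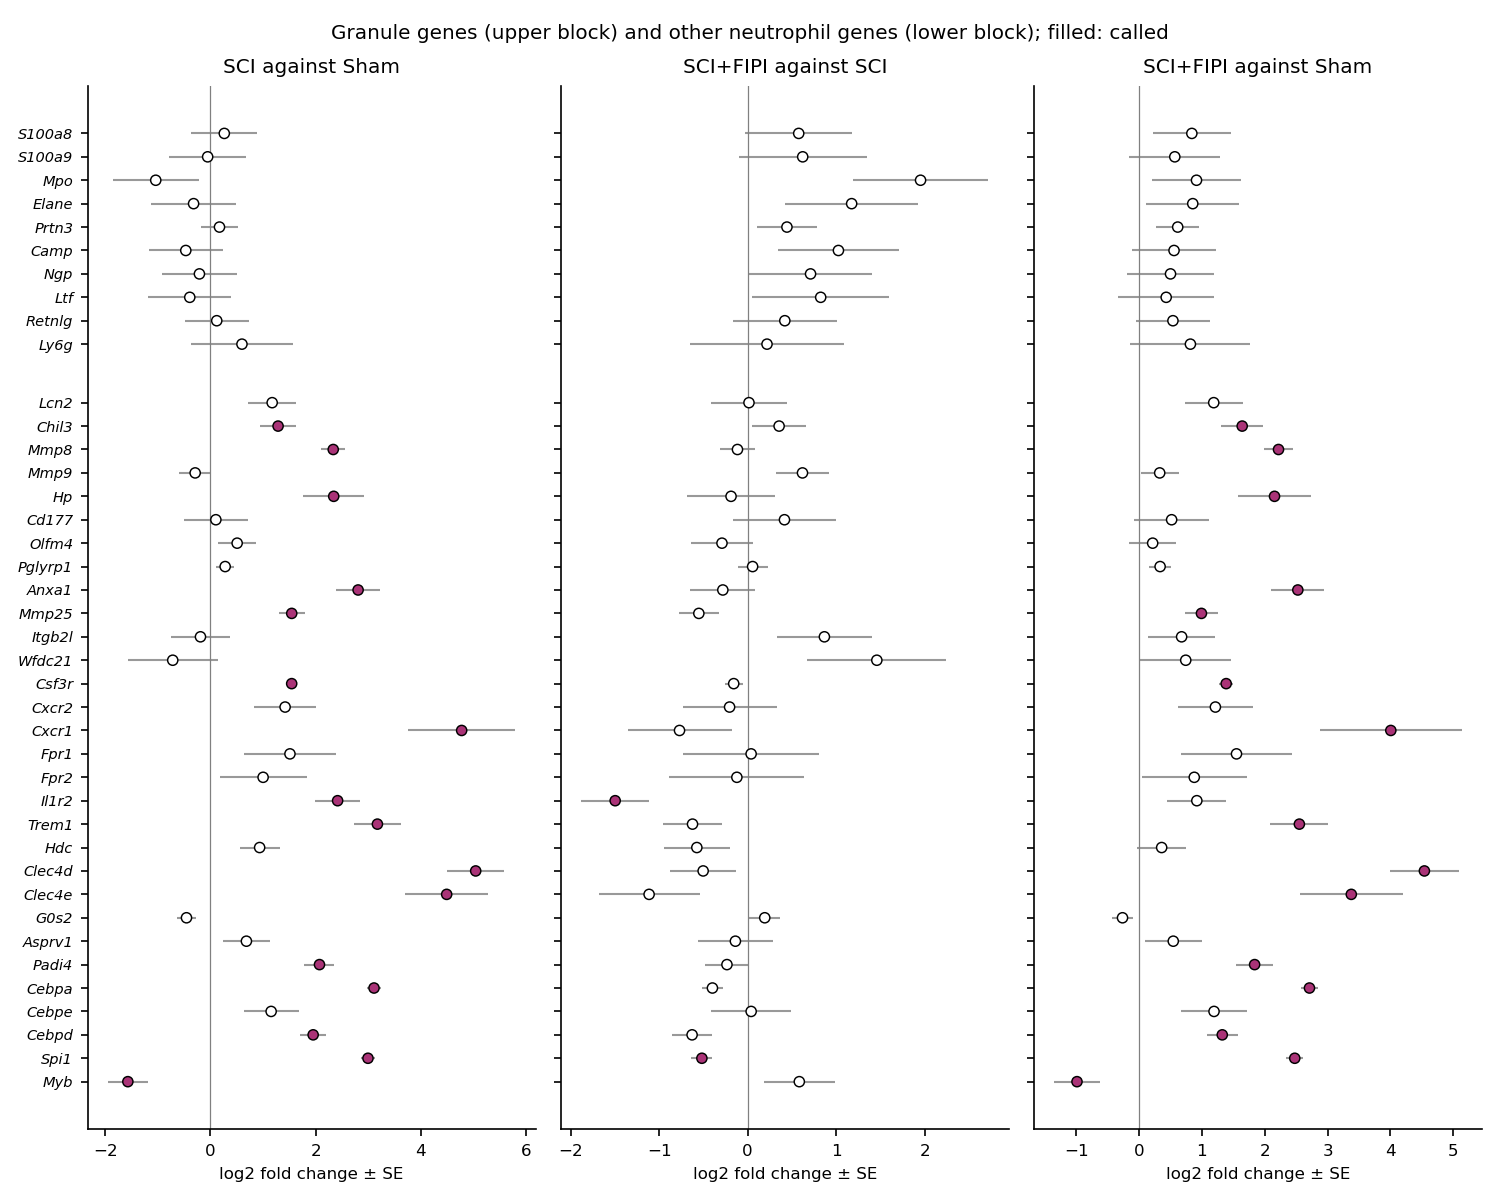
log2 fold change ± SE (horizontal axes) of the 10 granule genes (upper block) and of the 31 other neutrophil genes tested, apart from 1 left out (lower block), in the 3 comparisons, from all 9 mice, with filled points for genes called. No granule gene is filled, while 15 of the other genes are filled to the right of 0 between SCI and Sham and 2 to the left of 0 between SCI+FIPI and SCI. Of all genes tested 24.4% were called higher between SCI and Sham and 0.695% lower between SCI+FIPI and SCI.

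Genes that act before and after the granule proteins were read for the same comparisons. Of the ligands that recruit or expand neutrophils 4 of 6 were tested, and 3 rose between SCI and Sham: Cxcl1 by 3.85 (SE 0.54), Cxcl2 by 4.18 (SE 1.30) and Cxcl3 by 3.85 (SE 1.24) on the log2 scale, while Cxcl5 was at 1.63 (SE 0.86, adjusted p = 0.135 by edgeR). The calls of Cxcl2 and Cxcl3 were lost when any 1 Sham mouse was left out (adjusted p from 0.0591 to 0.0845 by edgeR), and without SCI mouse 2 the values were 2.33 for Cxcl2 and 2.46 for Cxcl3, both still called. Csf3, encoding G-CSF, was too low to be tested and Csf2 had 0 counts in all 9 mice. Between SCI+FIPI and SCI 0 of these 4 were called by edgeR, with 0 at an unadjusted p under 0.05. Receptors of the products had 3 of 4 called higher after injury, which were Tlr4 and Ager, both receptors of the S100 pair, and the scavenger receptor Cd36, at log2 fold changes of 2.22 (SE 0.19), 1.99 (SE 0.20) and 6.05 (SE 0.59). Between SCI+FIPI and SCI 0 of the 4 were called by edgeR, with 2 at an unadjusted p under 0.05. Fpr2, a receptor of the Camp peptide, was at 1.00 (SE 0.83). Inhibitors of the granule proteases moved both ways. Serpina3n rose by 2.23 (SE 0.29) and Slpi by 1.72 (SE 0.22), while Serpinb1a, a cytosolic inhibitor of elastase, fell by 0.61 (SE 0.09), a call lost without Sham mouse 3 (-0.499). Here 0 of these 3 were called between SCI+FIPI and SCI by edgeR (0 at an unadjusted p under 0.05).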

How the data were processed

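Total RNA of the cord segment was enriched on oligo(dT) beads and sequenced on the Illumina platform. The authors trimmed the reads and counted them per gene, and the deposited values were raw counts, without normalization, for 52550 genes in 9 mice. Per the submitters' processing notes the build was GRCm38 and R 4.2.3 was used. The aligner, the counting program and its use of the strand are not given in the sources used here. The labels number the mice of each group, and mice with 1 number are different animals.

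Identifiers were matched to GENCODE M21 (52403 found). edgeR 4.0.16 in R 4.3.3 was used with TMM factors, filterByExpr by group and a robust quasi-likelihood fit to all 9 mice. Genes were called at the limits of the study's methods, and p-values measure the spread between 3 mice a group. CPM used the TMM library sizes, and log2 CPM a prior count of 2. Any 2 mice of a group differed by more than counting noise (chi-square of 6.77 to 13.2 per gene). The fit was tested on simulated data with known changes.

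The members and lists were chosen with earlier results of these data known. Text names the members, the 4 most abundant genes or fewer of each list, neutrophil genes called between SCI+FIPI and SCI, the 5 genes nearest to a member, and exceptions stated as such. Of 155 listed genes 154 were matched, and the values of some genes are not reported here. Lists covered other granule genes, receptors, transcription factors, ligands, protease inhibitors, other blood and bone lineages, muscle and cord cells. The Schwann cell list was added after seeing the data.

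Alternatives tried were other scaling (RLE, upper quartile), no filter, a minimum of 10 counts in all mice, a replicate block, only the 2 groups compared, no robust estimation, no hemoglobin and mitochondrial genes, adjusted p alone, DESeq2 1.42.0, limma-voom (limma 3.58.1) and each mouse left out. Sequences and figures were handled in Python 3.11.15 (numpy 2.4.6, pandas 2.3.3, scipy 1.17.1, matplotlib 3.10.9). Behavior, staining, PCR and protein array values were not analysed here.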

Additional observations from a re-analysis of the deposited data

Results flagged for a closer look

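Il1r2 and Spi1 differed between the responses of the 2 injured groups. Their change against Sham was smaller in SCI+FIPI than in SCI mice, and the difference of the changes, which is the comparison of SCI+FIPI with SCI, was -1.50 for Il1r2 and -0.517 for Spi1 on the log2 scale, each called by edgeR's quasi-likelihood test. The cause was not tested.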

How the results depend on the processing

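Under every other setting that kept all mice, adjusted p alone among them, 0 members were called in each comparison, also with the replicate number as a replicate block, by DESeq2 and by limma-voom. With the replicate block 8744, 555 and 7115 genes were called. Correlations between same-numbered mice, after centring each gene within its group, were -0.073 to 0.108. They were weak, but with 3 mice a group they cannot decide whether the numbers pair the mice. In the comparison of SCI+FIPI with SCI, Spi1 was not called with the block (adjusted p = 0.0585 by edgeR) and Clec4e was (-0.95, adjusted p = 0.0172), and Cebpd was called lower by DESeq2 (-0.63, adjusted p = 0.00807) and by limma-voom (-0.62, adjusted p = 0.0413). The call of Cxcl2 between SCI and Sham was lost without a filter (adjusted p = 0.0578 by edgeR) and with only the 2 groups (0.0540). S100a9 between SCI and Sham turned to 0.13 with the block and 0.12 with limma-voom, and Ly6g between SCI+FIPI and SCI to -0.71 with limma-voom. Without each mouse in turn, 0 members were called between SCI and Sham, 0 to 2 between SCI+FIPI and SCI and 0 to 3 between SCI+FIPI and Sham, the highest without SCI+FIPI mouse 1. Log2 fold changes between SCI and Sham then ran from -1.39 to -0.26 for Mpo, -0.32 to 0.63 for S100a9, -0.93 to 0.12 for Elane, -0.10 to 0.61 for Prtn3, -0.80 to 0.14 for Camp, -0.53 to 0.43 for Ngp, -0.65 to 0.18 for Ltf, -0.0898 to 0.58 for Retnlg and -0.00144 to 2.03 for Ly6g, and Ly6g ran from -0.18 to 0.78 between SCI+FIPI and SCI. The number of genes called between SCI+FIPI and SCI was 572 with all mice, 1038 when SCI mouse 1 was left out, 341 for SCI mouse 2, 240 for SCI mouse 3 and 189 for SCI+FIPI mouse 2. By adjusted p alone it was 1800, and 11060 between SCI+FIPI and Sham. The other neutrophil genes called between SCI+FIPI and SCI were 0 to 2 without a mouse, 1 with upper-quartile factors and 1 with at least 10 counts in every mouse. Mmp9 was the 1 called without SCI+FIPI mouse 1 (0.91, adjusted p = 0.00423 by edgeR), and DESeq2 gave no adjusted p for Il1r2. One alternative, without both Sham mouse 2 and SCI+FIPI mouse 1, was chosen after seeing the data, from the levels of the members themselves, so that its p-values are too small. It called 2 members between SCI and Sham, 7 between SCI+FIPI and SCI and 10 between SCI+FIPI and Sham, all higher, and 1 and 23 other neutrophil genes in the last 2 comparisons. Between SCI and Sham it gave 0.63 for S100a9, 0.13 for Camp, 0.43 for Ngp and 0.18 for Ltf. The causes of these shifts were not tested.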

Other observations

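SCI mouse 2 stood above the other SCI mice in some genes of mature neutrophils and their ligands, chosen after their values were seen. Clec4e, a C-type lectin, was measured at 5.03, 17.8 and 5.27 CPM in the SCI mice and Hdc (histidine decarboxylase) at 3.98, 9.88 and 3.97 CPM. Other genes of the same lists did not share this, since Csf3r was at 77.8, 86.1 and 86.3 CPM, Padi4 at 4.91, 4.18 and 3.71 CPM, Cxcr1 at 0.461, 0.331 and 0.844 CPM and G0s2 at 7.80, 4.59 and 5.06 CPM. The ligand Cxcl1 was measured at 0.797, 2.32 and 2.19 CPM. The ligand Cxcl2 was measured at 1.01, 8.02 and 0.802 CPM, and Ly6c2, a monocyte gene, at 2.85, 13.9 and 1.56 CPM. The muscle gene Myh4 was at 0.126, 9.43 and 0.169 CPM in the same mice. The granule genes of this mouse summed to 55.7 CPM, the lowest of its group.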
